A study of Rattus norvegicus with 17 samples.

Results

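Peaks of 3 histone marks, H3K27Ac, H3K4me3 and H3K9me3, were set against each other within cultured mature oligodendrocytes (mOL) of the rat. The 3 peak lists were chosen by their sample labels and held 59901 of the 189320 regions in the 17 peak lists of the series. The series mapped these marks, Brg1, Olig2 and RNA polymerase II (RNAPII) by chromatin immunoprecipitation with sequencing (ChIP-seq) at 3 stages of the oligodendrocyte lineage. The mOL libraries came from wild-type Sprague-Dawley primary cells labelled with T3 (thyroid hormone) treatment. Cortices of pups at postnatal day 2 were the source of the cells, and the differentiation medium held T3 at 15 nM and ciliary neurotrophic factor at 10 ng/ml. Oligodendrocyte precursor cells (OPC, mitogen treatment) and immature oligodendrocytes (iOL, T3 treatment) had the same genotype, strain and source. How long each stage was cultured, and whether pups were pooled, is not stated in those labels.

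Each mark was mapped in 1 library per stage, so differences could not be checked in replicates and carry no p-value. The files hold only the position of each peak, so read depth and peak height are unknown. Peak lists hold no expression marker with which to check the cell type. The labels name the antibodies as a Cell Signaling product for H3K27Ac, ab1012 of Abcam for H3K4me3 and ab8896 of Abcam for H3K9me3. The last catalogue number is also known as that of an antibody to monomethylated lysine 9, so these peaks carry the name H3K9me3 only as their label gives it. Which form of methylation they hold was not tested.

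H3K4me3, trimethylated lysine 4 of histone H3, sits at the start sites of active and poised genes. H3K27Ac, acetylated lysine 27, sits at active promoters and also at active enhancers far from them, so H3K27Ac with H3K4me3 is a common signature of promoters and H3K27Ac without it one of enhancers. H3K9me3, trimethylated lysine 9, is bound by HP1 proteins and marks silenced chromatin and repeats. In the oligodendrocyte lineage such silencing is known to settle over genes of other fates as the cells mature.

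H3K27Ac had 35268 peaks with a median width of 827 bp, covering 38.6 Mb. That was 1.38% of the total chromosome length of 2792 Mb, each chromosome taken up to its last peak in any list. H3K4me3 had 17530 peaks with a median of 950 bp over 20.0 Mb (0.717%), and H3K9me3 had 7103 peaks with a median of 942 bp over 7.70 Mb (0.276%). Peaks were said to meet when they shared at least 1 bp. Shares carry exact Clopper-Pearson 95% intervals, which count each peak as independent and cover counting error only. As the level chance would give, 1 list was slid along each chromosome as a circle and the share was averaged over every possible shift, which is called the shift mean below. A shift keeps the widths and spacing of a list but breaks its tie to genes, mappable sequence and the other marks.

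The active marks lay together. Of the H3K4me3 peaks 13195 met H3K27Ac, which is 75.3% (95% interval 74.6 to 75.9), against a shift mean of 2.71%. Of the H3K27Ac peaks 14351 met H3K4me3, which is 40.7% (40.2 to 41.2), against a shift mean of 1.35%. These shares were 27.8 and 30.1 times the shift mean. Over 100 equally spaced shifts the 2 shares stayed between 2.28 and 3.42% and between 1.13 and 1.76%. Both ratios shrank when shifts went no farther than 1 Mb, which keeps each peak in its own gene-rich or gene-poor stretch. They were then 17.0 and 18.2.

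H3K9me3 met H3K4me3 less often than the shifts gave, and its ratio to the shift mean was lower with H3K4me3 than with H3K27Ac. Only 22 H3K9me3 peaks met H3K4me3, which is 0.310% (0.194 to 0.469) against a shift mean of 1.32%, or 0.23 times that mean. With H3K27Ac 172 H3K9me3 peaks met, which is 2.42% (2.08 to 2.81) against a shift mean of 2.62%. That ratio was 0.92 with an interval of 0.79 to 1.07, so the share could not be told from the shift mean. With shifts of at most 1 Mb the mean was 3.19% and the ratio 0.76 (0.65 to 0.88), so whether H3K27Ac was depleted at H3K9me3 depended on the shift used. The ratio for H3K4me3 was 0.20 (0.12 to 0.30) with the shorter shifts. Seen from the active marks, 21 H3K4me3 peaks (0.120%, shift mean 0.599%) and 177 H3K27Ac peaks (0.502%, shift mean 0.589%) met H3K9me3. The other 6918 H3K9me3 peaks (97.4%) met neither active mark, close to the shift mean of 97.0%.

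**Figure D1:**
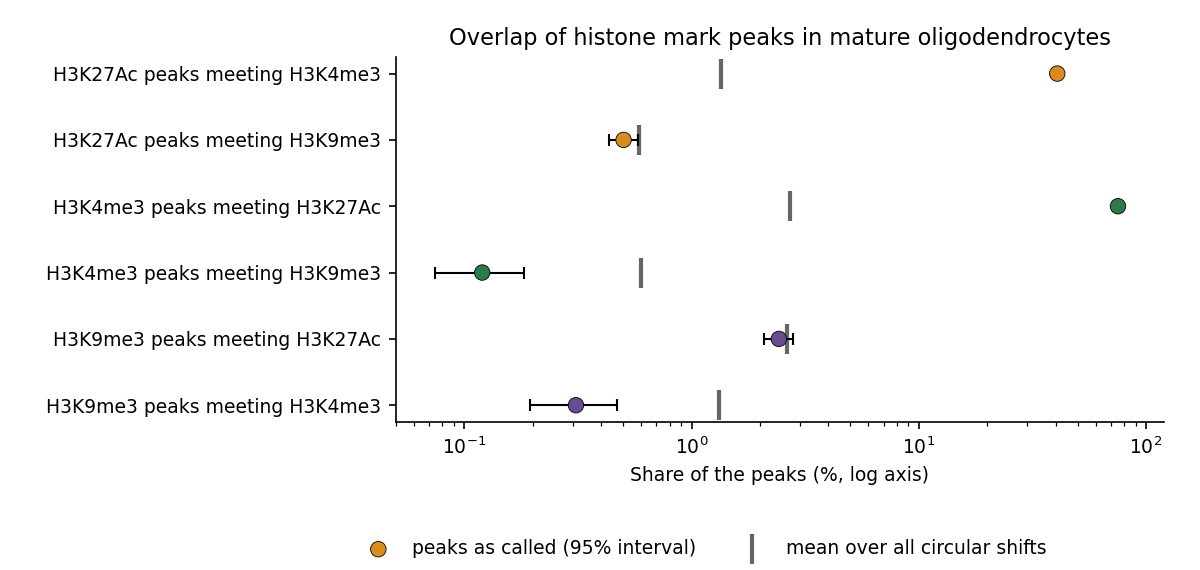
Share of the peaks of each mark (%, log axis) that met a peak of each other mark in mOL, as called (points with exact 95% intervals, 1 library per mark) and as the mean over all circular shifts (grey bars). H3K27Ac and H3K4me3 met each other far above the shift mean (75.3% and 40.7%), H3K9me3 met H3K4me3 below it (0.310%), and H3K9me3 met H3K27Ac close to it (2.42% against 2.62%).

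Counted in bases, H3K27Ac and H3K4me3 shared 13.3 Mb, which was 34.5% of the H3K27Ac bases and 66.7% of the H3K4me3 bases. The shift mean was 304 kb, so the shared length was 43.9 times as long. H3K27Ac and H3K9me3 shared 122.8 kb, close to the shift mean of 115.8 kb (ratio 1.06). H3K4me3 and H3K9me3 shared 8.75 kb, which was 0.15 times the shift mean of 59.6 kb. All 3 marks covered the same base over 3.67 kb in 9 stretches, against a mean of 39.9 kb when the H3K9me3 list was slid. The direction turns with the list slid. Peaks that met both other marks were 9 for H3K9me3, 0.13 times the mean when that list was slid. They were 11 for H3K27Ac and 13 for H3K4me3, 12.7 and 4.22 times the mean when their own list was slid, since a slid active mark also loses its tie to the other. By the ratio to the shift mean, the pairs came in the same order for bases as for peaks.

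When touching peaks of any mark were merged, 44795 regions over 52.9 Mb remained. H3K27Ac stood alone in 20750 of them (46.3%), and H3K27Ac with H3K4me3 made up 12624 (28.2%). H3K9me3 stood alone in 6917 (15.4%) and H3K4me3 in 4326 (9.66%). Mixed regions with H3K9me3 were rare. There were 153 with H3K27Ac, 8 with H3K4me3 and 17 with all 3 marks.

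The width of an H3K4me3 peak separated those with H3K27Ac from those without. H3K4me3 peaks with H3K27Ac had a median width of 1121 bp (quartiles 737 to 1648), and those without had 602 bp (462 to 823.5). Wider peaks meet more by chance, and the medians over circular shifts were 1109 bp with and 947 bp without. The median with H3K27Ac was thus close to its shift median, while the median without was well below its own. In 10 equal classes by width, the share with H3K27Ac went up at each step, with 41.8% in the narrowest class and 98.6% in the widest. None of the 423 H3K4me3 peaks of 3 kb or more lacked H3K27Ac. The widest without it was 2920 bp.

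H3K27Ac peaks showed no such order. Their median width was 852 bp with H3K4me3 and 809 bp without, and the shift medians were 959 and 826 bp. The share with H3K4me3 was 40.6% in the narrowest class, 46.8% in class 6 and 35.6% in the widest. Among H3K27Ac peaks of 3 kb or more, 425 met H3K4me3 and 760 did not. Broad acetylation was thus found both with and without the promoter mark.

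H3K9me3 peaks that met H3K27Ac were wider, with a median of 1169 bp against 938 bp for those that did not, and the shift medians were 1001 and 940 bp. The share meeting H3K27Ac was 1.54% below 1 kb, 3.37% from 1 to 2 kb and 5.08% at 2 kb or more. The ratios to the shift mean were 0.67, 1.18 and 1.19. With shifts of at most 1 Mb they were 0.60, 0.91 and 0.86, so a share above the mean for the wider peaks was seen with one kind of shift and not with the other. H3K9me3 peaks that met H3K4me3 had a median of 938 bp, against a shift median of 997 bp. Their ratios to the shift mean in the same 3 bands were 0.28, 0.20 and 0.13, and 0.26, 0.17 and 0.084 with shifts of at most 1 Mb, on 13, 8 and 1 peaks.

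**Figure D2:**
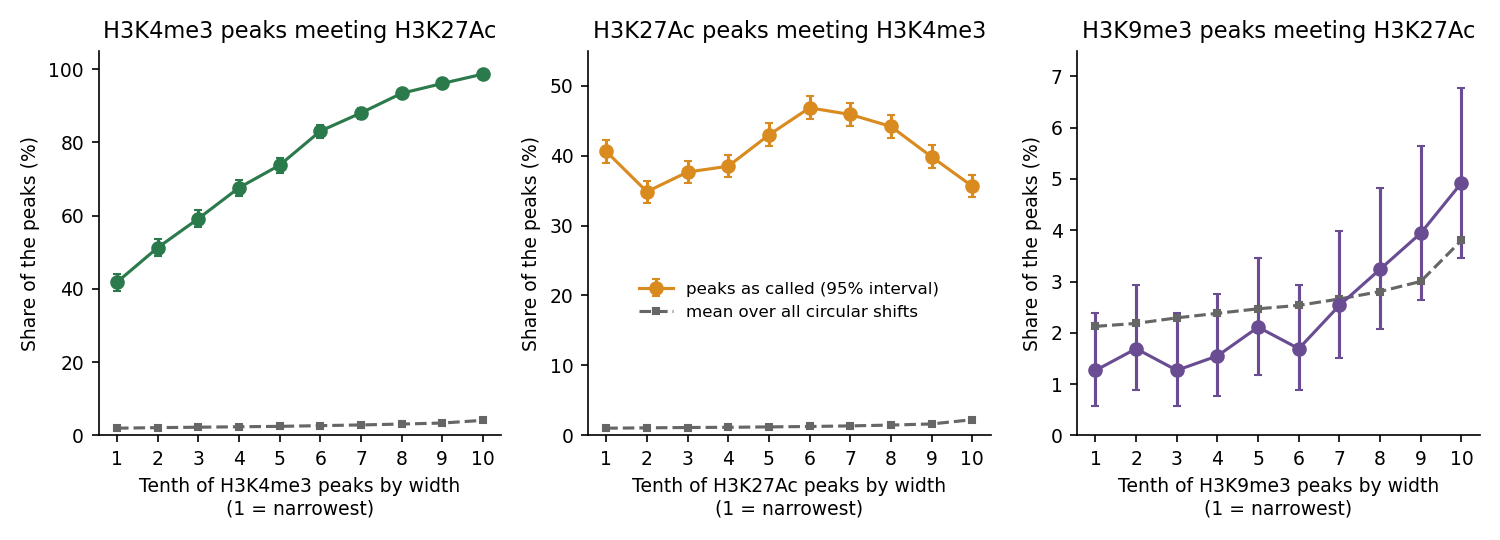
Share of peaks (%) meeting a second mark in mOL, by 10 equal classes of the first mark's peaks ordered by width, as called (points with exact 95% intervals) and as the mean over all circular shifts (grey squares). H3K4me3 climbs to 98.6% with H3K27Ac in the widest class, H3K27Ac stays between 34.9 and 46.8% with H3K4me3, and H3K9me3 runs between 1.27 and 4.92% with H3K27Ac.

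Within an H3K4me3 peak that had H3K27Ac, the acetylation mostly filled the same ground. H3K27Ac covered a median of 84.1% of the H3K4me3 peak (quartiles 68.8 to 96.6) and held its middle base in 94.3% of the 13195. In 88.0% a single H3K27Ac peak was met, in 11.2% it was 2 and in 0.841% it was 3 or more. The H3K27Ac ended inside the H3K4me3 peak on both sides in 41.9%, ran past 1 end in 40.4% and past both in 17.7%. The larger overhang had a median of only 19 bp.

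Broad H3K4me3 peaks were more often met by several H3K27Ac peaks. The share met by 2 or more was 0.729% below 500 bp, 13.6% from 1 to 2 kb and 48.0% at 3 kb or more. Where 2 were met, the middle base of the H3K4me3 peak lay outside H3K27Ac in 16.2% (239 of 1477), against 5.74% of all 13195. Seen from H3K27Ac, 96.4% of the peaks that met H3K4me3 met a single H3K4me3 peak, and the most met by 1 was 5.

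The 4335 H3K4me3 peaks without H3K27Ac lay either beside peaks that had it or on their own. Of them 32.7% lay at most 1 kb from an H3K4me3 peak with H3K27Ac and 33.7% at most 1 kb from an H3K27Ac peak, where the shift mean was 1.86%. The 2816 others (65.0%), with neither so near, had a median width of 626 bp. Over all 4335 the median distance to H3K27Ac was 11.5 kb (quartiles 0.515 to 53.8), against a shift median of 75.8 kb. These peaks were often absent from earlier lists. No mark of the 3 was called at 69.4% of the 4335 in OPC and at 78.9% in iOL, against 12.6% and 13.8% of the H3K4me3 peaks with H3K27Ac.

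H3K27Ac peaks without H3K4me3 numbered 20917, and they lay nearer to H3K4me3 than the shifts gave. Their median distance to the nearest H3K4me3 peak was 42.3 kb (quartiles 13.6 to 115.9), 3.29 times shorter than the shift median of 139.5 kb. Within 1 kb lay 4.68% of them against a shift mean of 0.915%, within 10 kb 20.4% against 8.15%, within 50 kb 54.1% against 28.5%, and within 100 kb 71.8% against 42.5%. The nearest H3K4me3 peak had H3K27Ac itself in 80.5%, and in 87.9% of those within 5 kb, against 75.3% of all H3K4me3 peaks. The last share counts each H3K4me3 peak once. No shift value was taken for the nearest peak, so a preference for H3K4me3 peaks with H3K27Ac was not tested.

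When each such H3K27Ac peak within 50 kb was assigned to its nearest H3K4me3 peak, the number assigned differed between H3K4me3 peaks. Those with H3K27Ac had 0.726 on average, those without had 0.402, and the 423 of 3 kb or more had 1.89. The most assigned to 1 was 22. Of the 423, 55.3% were assigned at least 1, against 32.9% of all H3K4me3 peaks with H3K27Ac.

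H3K9me3 had shorter median distances to the active marks than the shifts gave, but fewer peaks right beside H3K4me3. Its median distance to the nearer active mark was 36.3 kb (quartiles 11.5 to 109.6), against a shift median of 59.9 kb. To H3K27Ac it was 41.6 kb against 69.3 kb, and to H3K4me3 it was 97.9 kb against 135.4 kb. Within 1 kb of H3K4me3 lay 0.718% of the H3K9me3 peaks against a shift mean of 2.22%, and within 5 kb 3.82% against 5.56%. At 25 kb the order had turned, with 20.8% against 18.5%. With shifts of at most 1 Mb the ratios at 1, 5, 10 and 25 kb were 0.28, 0.59, 0.77 and 0.97. The excess at 25 kb was therefore not seen against the local shifts, while the deficit below 10 kb was.

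For H3K27Ac the deficit against local shifts was slight and short. The ratios were 0.76 at overlap, 0.89 within 1 kb, 0.92 within 2.5 kb, 1.00 within 5 kb and 1.10 (1.06 to 1.13) within 25 kb.

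**Figure D3:**
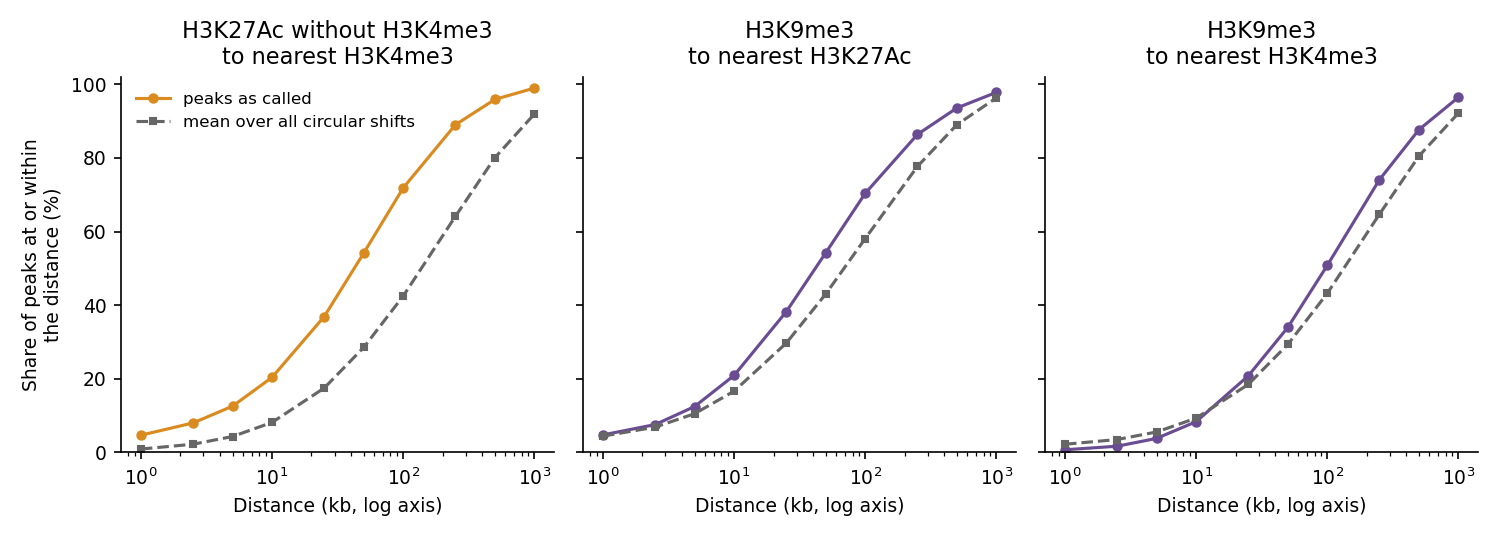
Cumulative share of peaks (%) at or within a distance (kb, log axis) of the nearest peak of another mark in mOL, as called (coloured) and as the mean over all circular shifts (grey). H3K27Ac peaks without H3K4me3 run above the shift curve throughout (54.1% against 28.5% at 50 kb), and H3K9me3 runs below it near H3K4me3 (3.82% against 5.56% at 5 kb) and above it at 25 kb and beyond.

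Coverage was also read base by base around peak middles. At the middles of H3K4me3 peaks with H3K27Ac, H3K9me3 covered 0.030% of the peaks, against 0.37 and 0.42% at 20 kb on the 2 sides and a shift mean of 0.300%. Around H3K9me3 middles, H3K4me3 covered 0.099%, against a shift mean of 0.769%. H3K27Ac covered 1.30% of them, against a shift mean of 1.50%. At H3K27Ac peaks without H3K4me3, H3K9me3 also covered less at the middle (0.378%) than at 2 kb on the 2 sides (0.531 and 0.665%). These values all lay above its shift mean of 0.299%, which was taken over all shifts and not within 1 Mb. Around H3K4me3 peaks without H3K27Ac, H3K27Ac covered 13.2 and 13.3% of the peaks at 1 kb on either side, which are the near neighbours described above.

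**Figure D4:**
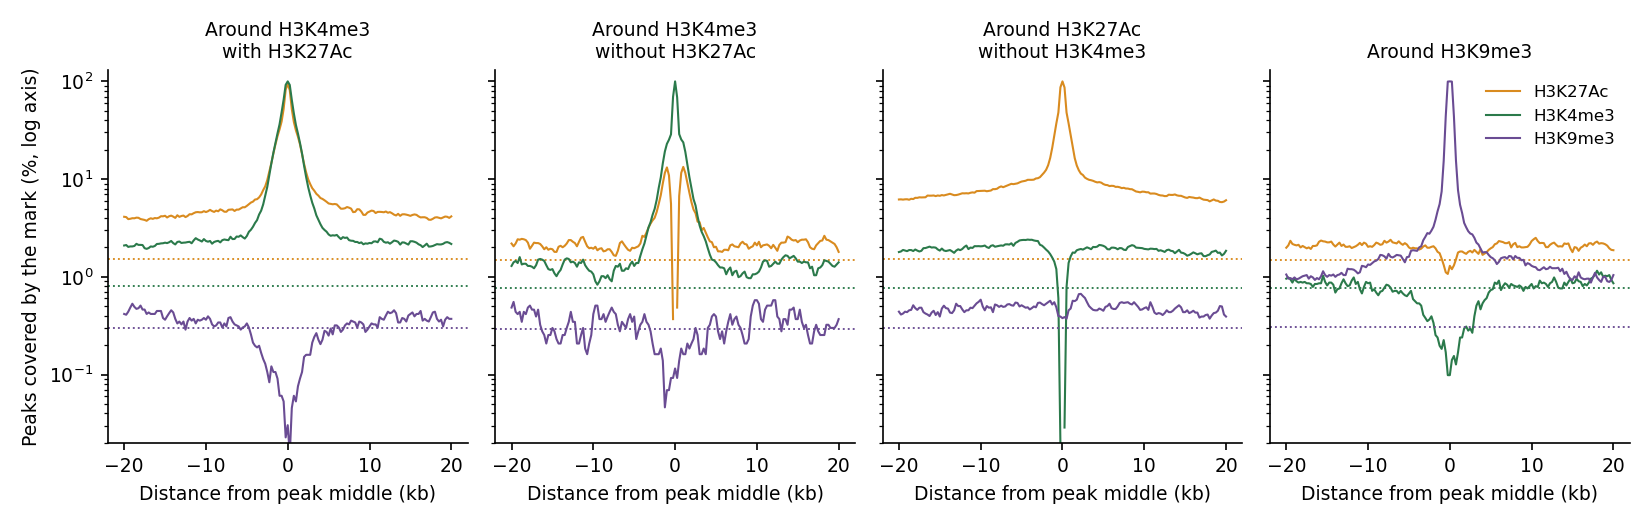
Share of peaks (%, log axis) whose surroundings were covered by each mark, against the distance from the peak middle (kb), for 4 sets of mOL peaks; dotted lines are shift means and values under 0.02% are not drawn. H3K9me3 falls to 0.030% at the middle of H3K4me3 peaks with H3K27Ac, and H3K4me3 falls to 0.099% at the middle of H3K9me3 peaks; the drop to 0 of a mark at the middle of peaks without it follows from how they were chosen.

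The marks also differed in how they clustered with themselves. The median gap to the nearest peak of the same mark was 0.657 kb for H3K27Ac, 0.485 kb for H3K4me3 and 70.1 kb for H3K9me3. The shift medians were 73.2, 137.2 and 170.4 kb, so each mark lay closer to itself than the shifts gave, H3K9me3 the least so. Joining peaks up to 1 kb apart left 24611, 11943 and 6792 of them, and whether such neighbours are 1 region called as several peaks was not tested. Walking along the chromosomes, the peak after an H3K9me3 peak was again H3K9me3 in 38.4%, while H3K9me3 made up 11.9% of all peaks. After an H3K4me3 peak it was H3K9me3 in 5.28%. The 11.9% is a share of all peaks, which counts each of several close or overlapping active peaks. It is not a shift mean, and no shift value was taken for the order of peaks.

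At the scale of 1 Mb windows H3K9me3 peaks were more numerous where the active marks were. Across 2708 windows, put in 4 equal classes by their number of H3K27Ac peaks, the class lowest in H3K27Ac held 946 H3K9me3 peaks, and the next classes held 1501, 2181 and 2444. Spearman's rho over windows was 0.846 for H3K27Ac with H3K4me3, 0.408 for H3K27Ac with H3K9me3 and 0.334 for H3K4me3 with H3K9me3. These are descriptions, since windows share gene density, mappable sequence and the library. The window richest in H3K9me3, chr18:30000001-31000000 (rn4), held 53 H3K9me3, 29 H3K27Ac and 25 H3K4me3 peaks. Windows chr1:75000001-76000000 and chr1:74000001-75000000 held 36 and 32 H3K9me3 peaks and no active peak.

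Between the 20 autosomes the share of H3K27Ac peaks with H3K4me3 ran between 34.3% on chromosome 18 and 48.8% on chromosome 10. On X it was 56.9% (53.1 to 60.6), above each autosome. The share of H3K4me3 peaks with H3K27Ac was 65.7% (61.6 to 69.7) on X and 71.5 to 80.0% on autosomes. X also had the fewest peaks per Mb of each mark, with 4.36 for H3K27Ac, 3.36 for H3K4me3 and 0.616 for H3K9me3. The lowest autosome values were 10.1, 4.66 and 2.08. The labels do not state the sex of the pups, and the share of sequence on X that reads could be mapped to was not analysed here.

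Factor peaks from the same stage, which had no part in these classes, fell unevenly over them. Brg1, the motor subunit of the BAF complex, which moves nucleosomes, met 17.0% (16.5 to 17.5) of the H3K27Ac peaks without H3K4me3 and 2.00% (1.78 to 2.24) of those with it. Olig2, a helix-loop-helix factor that sets the lineage, met 6.33% and 0.488%. Among H3K27Ac peaks of 1 to 2 kb the shares were 21.4% and 2.62% for Brg1, and 7.10% and 0.697% for Olig2, so the gap stood within 1 band of width. RNAPII, mapped in iOL and OPC but not in mOL, went the other way. Its iOL peaks met 0.784% of the mOL H3K27Ac peaks without H3K4me3 and 10.6% of those with it.

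Distance from H3K4me3 graded the same readouts. Brg1 met 4.39% of the H3K27Ac peaks within 1 kb of an H3K4me3 peak without touching it, 11.7% at 5 to 10 kb, 18.7% at 50 to 100 kb and 29.0% (26.0 to 32.1) beyond 500 kb. Olig2 met 1.53%, 4.83%, 6.78% and 10.9% at the same distances. The median widths of these H3K27Ac peaks were 652, 833, 833 and 730 bp. Within the band of 500 to 1000 bp Brg1 met 5.10% up to 10 kb away, 11.1% from 10 to 100 kb and 17.8% beyond 100 kb. The farthest peaks thus had the most Brg1 at like widths.

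The same H3K27Ac peaks differed in how often they were already acetylated earlier. An H3K27Ac peak of OPC was met by 72.3% of the mOL peaks that met H3K4me3, by 37.0% of those within 1 kb of it and by 18.1% of those beyond 500 kb. For iOL these shares were 73.1%, 42.4% and 26.8%. Of the H3K27Ac peaks without H3K4me3, 0.163% had H3K4me3 in OPC and 0.124% in iOL, against shift means of 0.850% and 0.783%. These peaks were chosen for lacking H3K4me3 in mOL, and the shift means do not allow for that choice. Of the mOL H3K4me3 peaks with H3K27Ac, 73.1% met H3K4me3 of OPC and 69.6% that of iOL. Low shares with earlier H3K4me3 thus follow in part from how the class was chosen.

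**Figure D5:**
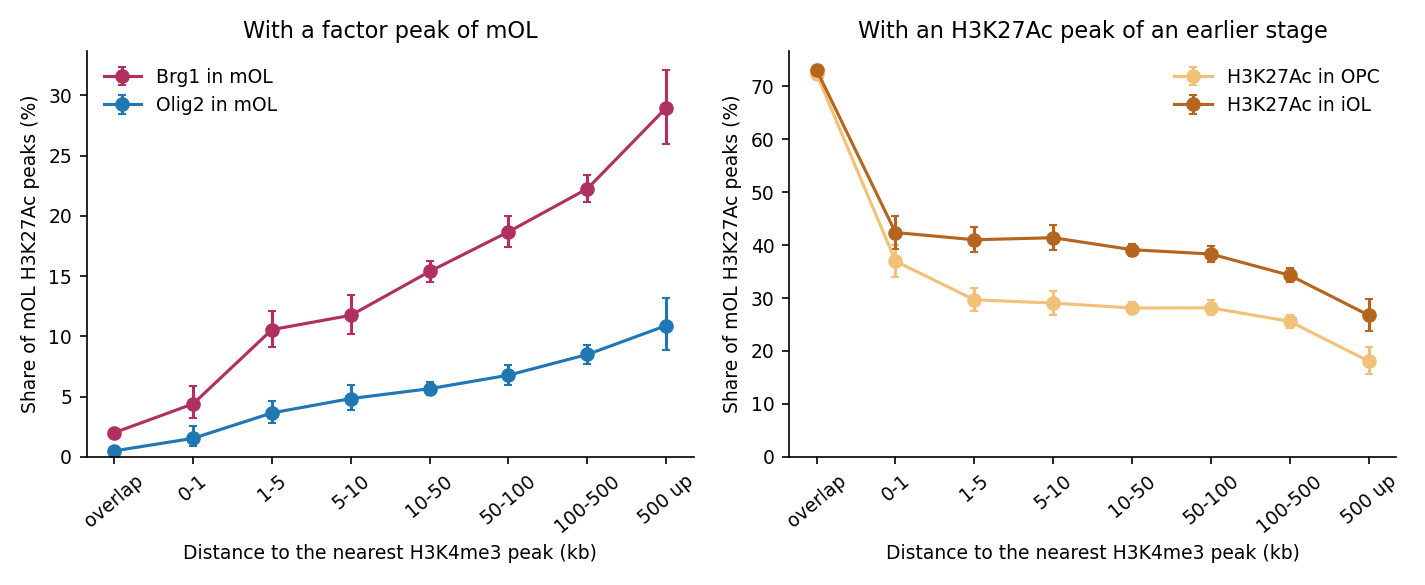
Share of mOL H3K27Ac peaks (%, with exact 95% intervals) that met a Brg1 or Olig2 peak of mOL (left) or an H3K27Ac peak of OPC or iOL (right), by distance to the nearest H3K4me3 peak of mOL (kb). Brg1 ran between 2.00% at H3K4me3 and 29.0% beyond 500 kb, while earlier H3K27Ac ran between 72.3 and 73.1% at H3K4me3 and 18.1 and 26.8% beyond 500 kb.

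H3K4me3 peaks with and without H3K27Ac differed in the same readouts. RNAPII of iOL met 11.2% of those with H3K27Ac and 1.06% of those without, and in the band of 500 to 1000 bp 8.28% and 1.16%. Brg1 met 1.90% of those with H3K27Ac and 0.208% (9 of 4335) of those without, where the shift mean was 0.249%.

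The 172 H3K9me3 peaks that met H3K27Ac seldom involved H3K4me3. Of the 177 H3K27Ac peaks involved, 11 met H3K4me3 (6.21%, 3.14 to 10.8), against 40.9% of the other H3K27Ac peaks. H3K27Ac covered a median of 51.6% of the H3K9me3 peak. Brg1 met 21 of the 172 (12.2%, 7.72 to 18.1) and 2 of the 6918 H3K9me3 peaks that met neither active mark (0.029%). H3K27Ac had been called in iOL at 36.0% and in OPC at 19.8% of the 172. H3K9me3 had been called in OPC at 16.3% of them and at 15.5% of the 6918. These Brg1 and H3K27Ac shares were not particular to the 172. Of all H3K27Ac peaks without H3K4me3, 17.0% met Brg1, 37.8% met H3K27Ac of iOL and 27.7% that of OPC. The comparison is rough, since the 172 are H3K9me3 peaks (median 1169 bp) and the others H3K27Ac peaks (median 809 bp). In OPC no mark of the 3 was called at 67.4% of the 172 and at 84.4% of the 6918. These lists come from populations of cells, so marks on the same molecules and marks in different cells or alleles cannot be told apart.

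Individual regions show the range, with positions in build rn4. The widest H3K27Ac peak, chr10:58605331-58628883 (23553 bp), met H3K4me3. The widest without it, chr20:43559993-43573001 (13009 bp), lay 55.2 kb from H3K4me3. The farthest, chr13:26350616-26351689, lay 4575 kb from H3K4me3. The widest H3K4me3 peak, chr2:12272150-12284976 (12827 bp), met H3K27Ac. The widest without H3K27Ac, chr17:79382166-79385085, lay 114.1 kb from it. The widest H3K9me3 peak that met neither active mark, chrX:129466128-129474607 (8480 bp), lay 926.3 kb from H3K27Ac.

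The widest H3K9me3 peak of all was one that met an active mark. It lay at chr15:40037645-40046962 (9318 bp) and met H3K27Ac. The second widest that met H3K27Ac, chr15:40023101-40029418 (6318 bp), was its near neighbour. They lay 82.3 and 99.8 kb from H3K4me3. The widest H3K9me3 peak that met H3K4me3 was chr4:65394330-65398089 (3760 bp). The longest stretch with all 3 marks, chr2:116637421-116638393, was 973 bp, and the next, chr2:116638577-116639190, 614 bp, lay beside it. No annotation of this build was used, so no gene is named.

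Across the stages OPC, iOL and mOL, the share of H3K4me3 peaks with H3K27Ac was 74.0, 78.9 and 75.3%. That of H3K27Ac peaks with H3K4me3 was 47.2, 39.7 and 40.7%. The ratios to the shift mean were lowest in mOL, at 56.8, 50.6 and 27.8, and at 58.0, 51.3 and 30.1. The shift means were 1.30, 1.56 and 2.71%, and 0.814, 0.773 and 1.35%. Between shares of like size the ratio falls as the shift mean rises, so a lower ratio alone does not show a weaker tie. With the widest mOL peaks kept, at the numbers of OPC and of iOL, H3K4me3 peaks in mOL met H3K27Ac in 61.9 and 71.8%. Those ratios were 29.6 and 31.1, with shift means in the cut mOL lists of 2.09 and 2.31%. H3K27Ac peaks in the same cut lists met H3K4me3 in 39.3 and 36.7%. H3K9me3 peaks met H3K27Ac in 0.635, 0.605 and 2.42%, which was 0.46 (0.28 to 0.71), 0.44 (0.14 to 1.03) and 0.92 (0.79 to 1.07) times the shift mean. They met H3K4me3 in 0.413, 0.363 and 0.310%. Those shares were 0.47 (0.25 to 0.81), 0.54 (0.11 to 1.57) and 0.23 (0.15 to 0.35) times the shift mean. The H3K9me3 lists held 3149, 827 and 7103 peaks, and the OPC and iOL shares with H3K27Ac rest on 20 and 5 peaks. Cutting the mOL lists to the numbers of OPC by keeping the widest peaks gave H3K9me3 with H3K27Ac at 2.60% in mOL (1.24 times the shift mean, 0.99 to 1.53), against 0.635% in OPC. At the numbers of iOL it was 4.23% in mOL (1.53 times, 1.07 to 2.11), against 0.605% in iOL. This cut also selects by width, and wider mOL H3K9me3 peaks met H3K27Ac more often (1.27% in the narrowest class, 4.92% in the widest). Before any cut the H3K9me3 medians were 1056 bp in OPC, 659 bp in iOL and 942 bp in mOL. Stage and width were thus not separated, and shifts of at most 1 Mb were not run on the cut lists. At the numbers of OPC, H3K9me3 with H3K4me3 was 0.222% (0.0894 to 0.457) in mOL and 0.413% (0.220 to 0.705) in OPC, with intervals that overlapped. At the numbers of iOL the order of the shares was the other way, with 0.484% (0.132 to 1.23) in mOL and 0.363% (0.0749 to 1.06) in iOL, on 4 and 3 peaks. The ratio to the shift mean was lower in mOL in both cuts, with intervals that overlapped. It was 0.18 (0.072 to 0.37) in mOL against 0.47 (0.25 to 0.81) at the numbers of OPC. At the numbers of iOL it was 0.34 (0.092 to 0.86) in mOL against 0.54 (0.11 to 1.57). No test between stages was possible with 1 library each, and the part of depth in these values was not tested.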

How the data were processed

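The submitters' processing notes name the peak caller MACS 1.4.0 and the genome build rn4. The authors' deposited lists, sorted here by sample title, give chromosome, start and end, with no other column, score or count. The sources used here do not give the aligner, peak threshold or control library, and list length moves with depth and threshold. The marks, classes and measures were chosen with earlier results of these data known.

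Starts were written 1-based. Distances are the bases between peak edges. For distances and widths, classes of peaks without a mark were compared with shifts that also did not meet it. For factors, RNAPII, earlier stages and coverage around peak middles, the shift means of such classes were taken over all shifts. Shift means are exact averages over all circular shifts, with the largest peak end over 17 lists as chromosome length (2792 Mb in all). They describe, and are no test. Named regions are the 3 widest peaks of each class, the 5 longest stretches with all 3 marks and the 3 H3K27Ac peaks farthest from H3K4me3, on numbered chromosomes and X, of which the text gives a selection.

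The shift calculation was tested on lists with known answers, and the 6 overlap counts matched those of bedtools 2.31.1. Python 3.11.15, numpy 2.4.6, pandas 2.3.3, scipy 1.17.1 and matplotlib 3.10.9 were used. Alternatives were an overlap counted from 50% of the shorter peak on, peaks at most 1 kb apart, no unplaced sequence, merged peaks, the middle 200 bp, the wider 50% of each list, lists of equal number and shifts of at most 1 Mb. Joining peaks up to 1 kb apart, lists of the numbers of another stage, local shifts by distance, and factors by distance within bands of width were added after seeing the data. The reference tables at hand are of another rat build, so genes and sequences were not used.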

Additional observations from a re-analysis of the deposited data

How the results depend on the processing

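Of 59 values of 12 results under the alternatives, 26 stayed inside the 95% interval of the value reported and 33 did not. A reversal was defined only for ratios to the shift mean whose interval excluded 1, and 0 of those reversed with shifts of at most 1 Mb. Shares and distances could not count as reversed. Merged peaks and lists without unplaced sequence moved none of the 7 shares and distances. No list held peaks that touched, so merging could change nothing. H3K9me3 had no peak on unplaced sequence, so its values could not change there either. These values are among the 26 and do not speak for stability. Below, values come in the order H3K27Ac with H3K4me3, H3K4me3 with H3K27Ac, H3K9me3 with H3K27Ac, H3K9me3 with H3K4me3. They were 40.1, 74.6, 1.58 and 0.169% with overlap of 50% of the shorter peak, and 43.5, 83.6, 4.76 and 0.718% for peaks at most 1 kb apart. With the middle 200 bp of each peak they were 25.6, 51.4, 0.408 and 0.0141%, and with lists of equal number 31.9, 31.9, 1.07 and 0.169%. With the wider 50% of each list the first pair was 35.3 and 68.2%, and with peaks up to 1 kb apart joined 39.2 and 80.2%. H3K9me3 with both active marks was 0.451% at most 1 kb apart, 0.0563% in the wider 50% and 0% in the middle 200 bp, where 3 counts would give 0.0422%. The median distance of H3K27Ac without H3K4me3 to H3K4me3 was 46.3 kb when peaks at most 1 kb apart counted as meeting, 26.5 kb with the middle 200 bp, 50.5 kb in the wider 50%, 56.2 kb with equal numbers and 46.8 kb after joining. That of H3K9me3 to an active mark was 49.9 kb in the wider 50% and 101.1 kb with equal numbers. Shorter or narrower lists hold fewer bases to meet, by construction. With shifts of at most 1 Mb the ratios to the shift mean were 18.2 for H3K27Ac with H3K4me3, 17.0 for H3K4me3 with H3K27Ac and 0.76 for H3K9me3 with H3K27Ac. The overlap rules do not enter the H3K9me3 distance.

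No paired analysis was possible because each mark had 1 library. Read depth is unknown, peak callers for narrow peaks can split or miss broad domains, and the settings used are not known. A peak not called is not a mark shown to be absent.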
